A study of Mus musculus with 6 samples.

Results

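The Wnt module studied here is the set of Wnt ligands, Frizzled receptors, Lrp5 and Lrp6 co-receptors, secreted Sfrp and Dkk antagonists, Axin scaffolds, beta-catenin and the TCF/LEF transcription factors. Its members were selected by gene symbol alone, from probe sets annotated to 1 symbol, and where a gene has several, the one with the highest mean over the 6 arrays stands for it. The rule found 45 genes of 18193, measured by 91 of 45037 probe sets. They are all 19 Wnt genes and 10 Frizzled genes, 2 co-receptors, 8 antagonists (Dkk1 to Dkk4, Sfrp1, Sfrp2, Sfrp4 and Sfrp5), Axin1 and Axin2, Ctnnb1, and Lef1, Tcf7l1 and Tcf7l2; Tcf7 was not analysed here.

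RNA came from the mouse lung adenocarcinoma line 344SQ, a mass population grown from a subcutaneous tumor of 1 animal with the genotype p53R172H∆g/+ K-rasLA1/+. The cells carried a lentivirus with the miR-200b-200a-429 cluster (3 cultures, called miR-200 A, B and C) or the control vector (control A, B and C), and both kinds were pools of GFP-positive cells kept under puromycin. Whether the 3 cultures of a kind were transduced separately is not stated in the labels, so p-values measure the spread between cultures, and a stable difference between the pools cannot be told apart from an effect of the microRNAs. Values are log2 signals, 1 array per culture, and a difference is miR-200 minus control on that scale.

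Wnt proteins are secreted ligands that bind a Frizzled receptor together with Lrp5 or Lrp6. In the canonical branch this stops a complex built on Axin from marking beta-catenin for destruction, and beta-catenin then acts in the nucleus with TCF/LEF factors on target genes, Axin2 among them. Other Wnt and Frizzled pairs act on cell polarity and movement without beta-catenin. In the developing mouse lung, Wnt7b is made by the epithelium.

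The agent of the study is 3 mature microRNAs from 1 cluster on mouse chromosome 4, shown because their seeds are a main part of how they pair with messengers. Sequences are from RefSeq, build GRCm38.p6, minus strand, 5′ to 3′, with the seed (bases 2 to 8) in capitals.
mmu-miR-200b-3p (chr4:156055685-156055706): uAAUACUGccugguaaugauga
mmu-miR-429-3p (chr4:156053916-156053937): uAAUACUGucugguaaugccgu
mmu-miR-200a-3p (chr4:156054911-156054932): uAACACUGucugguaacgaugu
The first 2 share a seed, and that of miR-200a differs from it by 1 base. The microRNAs themselves, and seed matches in the members, were not analysed here.

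In each group 1 array stood apart. The median of 9 proliferation genes was 7.96, 11.43 and 11.45 on miR-200 A, B and C, and 11.54, 7.91 and 11.45 on control A, B and C, so miR-200 A and control B had much the lowest values. The background gauge is 4.92, the highest mean of any of the array's 3 bacterial trp control probe sets. All 10 epithelial and all 6 mesenchymal genes looked at had a group mean above it. The epithelial markers Cdh1, Krt8 and Krt18 had group means between 13.23 and 13.93 in both kinds of cells. Cldn4 and Esrp1, of the same list, had control means of 3.52 and 2.95, under the gauge. The mesenchymal marker Vim averaged 13.66 in miR-200 cells and 13.77 in control cells. Of 10 epithelial genes 5 rose in miR-200 cells (limma, adjusted p under 0.05), where 0.275% of all genes rose, and of 6 mesenchymal genes 1 fell, where 0.671% of all genes fell. Of 8 lung epithelial markers 5 were above the gauge, Sftpd and Nkx2-1 among them, and Sftpc, Scgb1a1 and Foxj1 were not. Of these 8, 2 fell: Sftpb averaged 6.54 in miR-200 cells and 12.58 in control cells (adjusted p = 0.00249), and Aqp5 averaged 10.85 in miR-200 cells and 12.31 in control cells (adjusted p = 0.0148).

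Markers of other cell types were above the gauge in 4 of 6 fibroblast, 3 of 5 endothelial and 3 of 4 measured blood genes, none past the test and none at 0 on any array. Col1a1, Col1a2, Lum and Pdgfra, Cdh5, Tek and Emcn, and Ptprc, Cd68 and Cd3e were above it. Col3a1, Dcn, Pecam1, Kdr and Hba-a1 were not. The log2 of the summed signal ranged over 8.53 to 8.68 in miR-200 cells and 8.47 to 8.57 in control cells for the fibroblast list, and over 7.22 to 9.22 in miR-200 cells and 7.56 to 9.14 in control cells for the blood list. The high blood values came with Cd68, a macrophage marker, at 8.98 on miR-200 A and 8.87 on control B. For the endothelial list the range was 7.95 to 8.16 in miR-200 cells and 7.85 to 7.95 in control cells. The part of these markers in the results was not tested. Members whose difference changed sign without miR-200 A and control B are listed after the TCF/LEF factors.

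No Wnt module gene passed the test. The numbers past an adjusted p of 0.05 (limma, Benjamini-Hochberg over all 45037 probe sets) were 0 of 45 members, against 172 of 18193 genes (0.945%). Before adjustment, 2 members were higher and 5 lower in miR-200 cells with p under 0.05, where 6.35% of all genes were higher and 8.47% lower. The 3 miR-200 values lay on one side of the 3 control values in 13 members, 6 higher and 7 lower, against 11.4% and 12.1% of all genes. Fzd8, Tcf7l1 and Sfrp2 also differed by at least 1 with a group mean above the gauge, as 3.56% of all genes did; Sfrp2 met this through its miR-200 mean alone. The median difference of the members was -0.01, and that of all genes 0.0014. Among the 35 members with a group mean above the gauge the median size of the difference was 0.24, against 0.23 over the 14313 such genes of the array. With other settings for dim probe sets, the variance model or array weights, 3 or 4 members passed, out of Wnt7b, Fzd6, Fzd8, Fzd1 and Tcf7l1. Their values are given under each gene. Those settings called 2.72% to 3.72% of the genes they tested, and without dim probe sets 30 of the 45 members were tested. Of 28 other probe sets of members that were above the gauge, 17 had a difference of the same sign as the one that represents the gene.

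**Figure D1:**
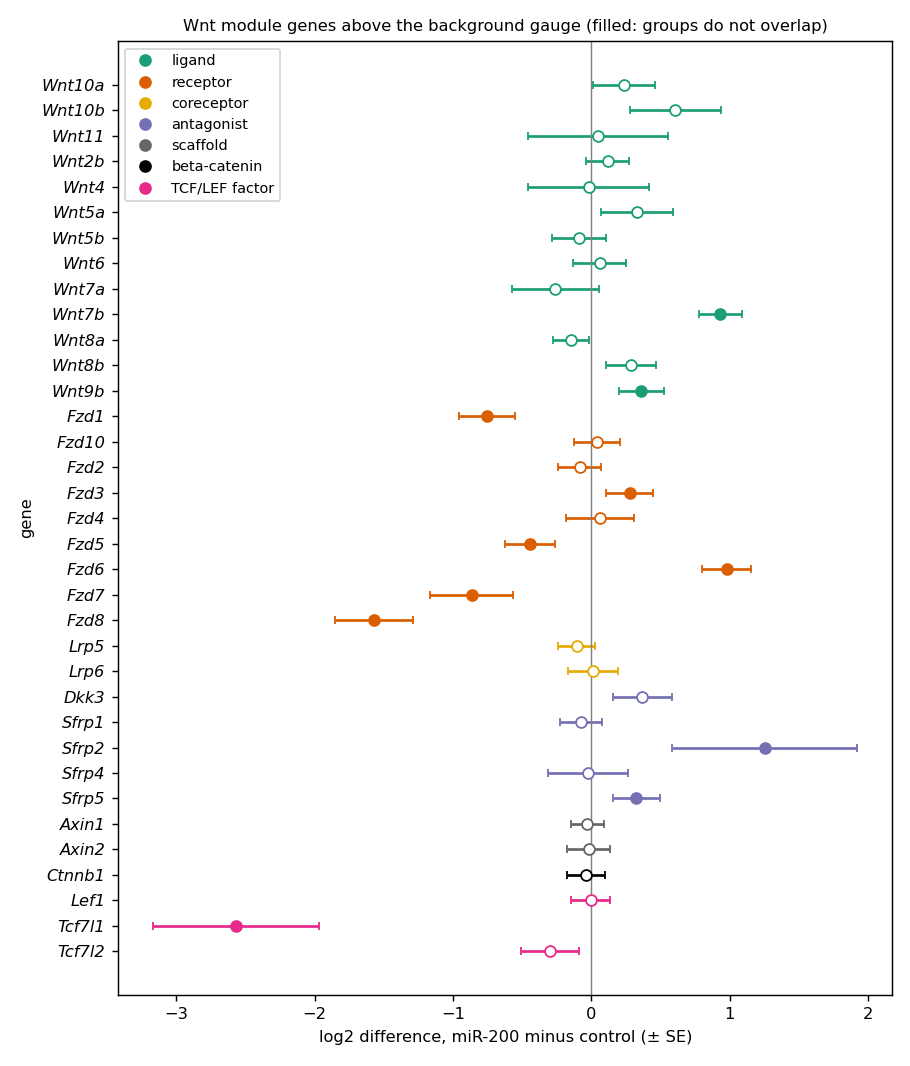
Log2 difference between miR-200 and control cells (x axis, ± SE of the limma fit, 3 arrays per group) for the 35 Wnt module genes with a group mean above the background gauge, coloured by role; filled points mark genes whose groups do not overlap. Filled points lie on both sides of 0 among the Frizzled receptors, from -1.57 for Fzd8 to 0.98 for Fzd6, whereas Ctnnb1, Axin1, Axin2, Lef1, Lrp5 and Lrp6 lie within 0.11 of 0. Each point is the brightest probe set of its gene, and dimmer ones are not drawn.

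Of the 19 Wnt ligands, 13 had a group mean above the gauge. Wnt7b read 9.38, 9.30 and 9.23 on miR-200 A, B and C, and 8.14, 8.53 and 8.45 on control A, B and C. All 3 miR-200 cultures were thus higher, by amounts larger than the spread within either group. The difference was 0.93 ± 0.16 (SE; 95% interval 0.54 to 1.32), a ratio of 1.91, with an adjusted p = 0.0868 in limma. Its other probe set gave 0.93 ± 0.17 (adjusted p = 0.104), also with no overlap. Wnt7b passed when the dimmest 40% of probe sets were left out (adjusted p = 0.0287), with a variance trend (0.0302) and with array weights (0.0331). Without control B and miR-200 A the difference was 0.97 (adjusted p = 0.126). The gene lies on chromosome 15, from 85535437 to 85581821 (GRCm38.p6).

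Among the other ligands above the gauge, Wnt9b was the only one whose groups did not overlap, with means of 5.61 in miR-200 cells and 5.26 in control cells (adjusted p = 0.402). Wnt10b averaged 5.90 in miR-200 cells and 5.30 in control cells, and its control values ranged from 4.65 to 5.81. Wnt5a, a ligand known for the branch without beta-catenin, averaged 7.04 ± 0.19 in miR-200 cells and 6.71 ± 0.45 in control cells (SD, n = 3). Its 4 probe sets all had higher means in miR-200 cells, by amounts that differed. A dimmer one, with a control mean of 4.72 that lies under the gauge, differed by 1.34 ± 0.29 with no overlap (adjusted p = 0.139), against 0.33 ± 0.26 for the brightest. The others overlapped, at 0.66 ± 0.38 and, not above the gauge in either group, 0.21 ± 1.17.

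The remaining 9 ligands above the gauge differed by -0.26 to 0.29, and their groups overlapped. Wnt7a averaged 8.19 in miR-200 cells and 8.45 in control cells. Its next probe set, also above the gauge, differed by 0.21 ± 0.23, and the dimmest, not above it, by -0.29 ± 0.26. No direction is therefore given for Wnt7a. Wnt4 averaged 7.06 in miR-200 cells and 7.08 in control cells. It was highest on control B (7.93) and lowest on control A (6.29), a range within the control group that is wider than any difference between ligand means. A dimmer Wnt4 probe set averaged 3.63 in miR-200 cells, under the gauge, and 5.13 in control cells, lower without overlap (-1.50 ± 0.49, adjusted p = 0.275), and averaging the pair gave -0.76. No direction is therefore given for Wnt4.

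The means of the other 7 ligands lay close to the gauge. Wnt8b averaged 5.89 in miR-200 cells and 5.60 in control cells, Wnt10a 4.97 in miR-200 cells and 4.73 in control cells, under the gauge. The dimmer probe sets of Wnt8b, each with a group mean above the gauge, differed by -0.38 ± 0.54 and -0.65 ± 0.53. No direction is therefore given for Wnt8b. Wnt2b averaged 5.79 in miR-200 cells and 5.67 in control cells, and Wnt6 5.65 in miR-200 cells and 5.60 in control cells. By the brightest probe set, these were the ones with higher means in miR-200 cells, along with Wnt11, at 5.32 in miR-200 cells and 5.28 in control cells. Wnt5b averaged 5.37 in miR-200 cells and 5.46 in control cells, and Wnt8a 5.84 in miR-200 cells and 5.99 in control cells. In both groups, Wnt1, Wnt2, Wnt3, Wnt3a, Wnt9a and Wnt16 had means that were not above the gauge. Wnt3a was lower on all 3 miR-200 arrays, 3.75, 3.92 and 3.97 against 4.70, 4.16 and 4.56 in control A, B and C, but at that level no fold is given.

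**Figure D2:**
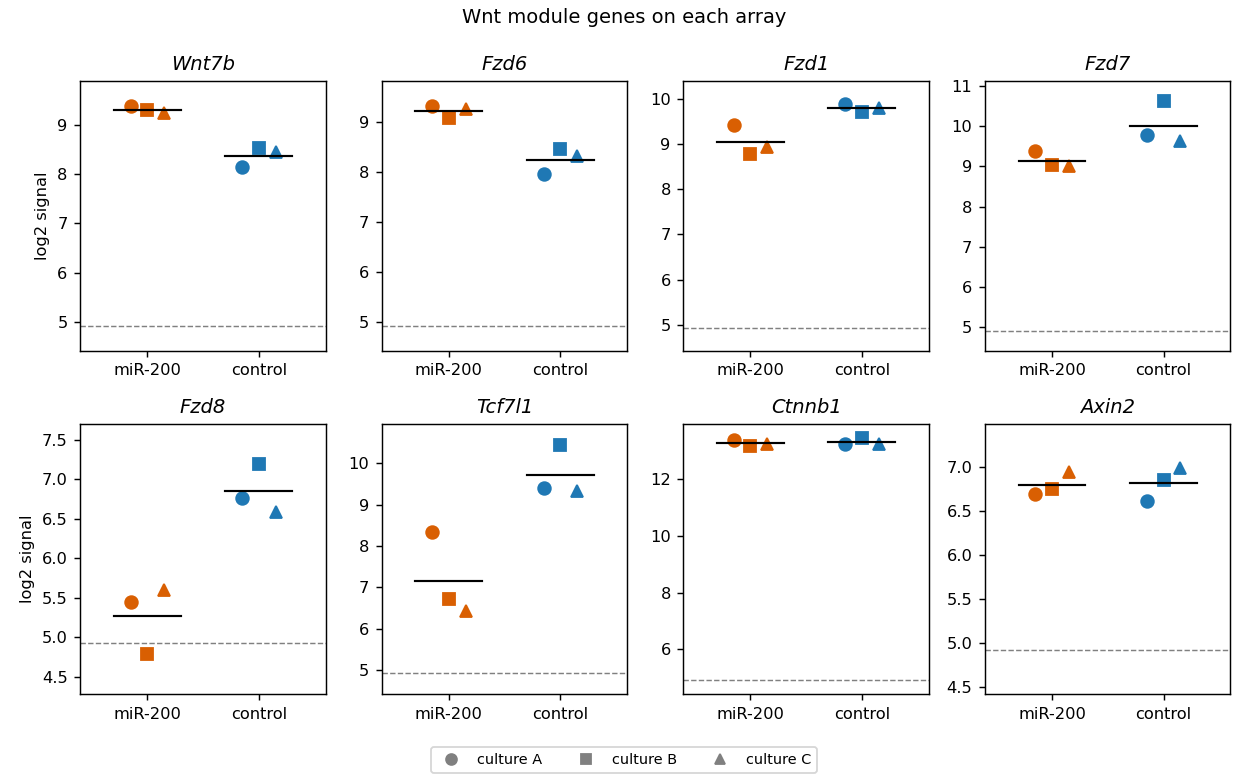
Log2 signal (y axis, a separate range for each gene) of 8 Wnt module genes on each array, miR-200 left and control right, with symbols for cultures A, B and C, a bar for the group mean and a dashed line at the gauge of 4.92. The groups separate for Wnt7b, Fzd6, Fzd1, Fzd7, Fzd8 and Tcf7l1 and overlap for Ctnnb1 and Axin2; Tcf7l1 and Fzd7 are highest on control B and, within their group, on miR-200 A.

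The Frizzled receptors differed in both directions. Of 10, 9 had a group mean above the gauge, and 6 had groups that did not overlap: Fzd6 and Fzd3 were higher and Fzd8, Fzd7, Fzd1 and Fzd5 lower in miR-200 cells. That is 6 of 10, where 23.5% of all genes had groups without overlap, and none passed the adjusted test. The median difference of the 10 receptors was -0.26.

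Fzd6, a receptor known in mouse for hair and tissue polarity, read 9.32, 9.08 and 9.26 on miR-200 A, B and C, and 7.96, 8.46 and 8.31 on control A, B and C. Its lowest miR-200 value was above its highest control value. The difference was 0.98 ± 0.18 (95% interval 0.53 to 1.42), a ratio of 1.97 (limma, adjusted p = 0.101). The same 3 settings gave a call for Fzd6 (adjusted p = 0.0352, 0.0367 and 0.0455). Its 2 dimmer probe sets differed by less, 0.43 ± 0.21 and 0.07 ± 0.25, and their groups overlapped, so that the mean of all 3 differed by 0.50. Without control B and miR-200 A the difference was 1.04 (adjusted p = 0.136). Fzd6 lies on chromosome 15 at 39006149 to 39038192. Fzd3, which also acts in polarity, averaged 7.55 ± 0.22 in miR-200 cells and 7.28 ± 0.15 in control cells (adjusted p = 0.534). The nearest values of the groups were 7.42 on miR-200 B and 7.37 on control B. Its 6 probe sets all had higher means in miR-200 cells, and the groups overlapped in all but the brightest.

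Fzd8 showed the largest difference among the receptors. It read 5.45, 4.79 and 5.59 on miR-200 A, B and C, and 6.76, 7.19 and 6.58 on control A, B and C. The miR-200 values lie near the gauge, and that of miR-200 B is under it. The difference was -1.57 ± 0.28 (95% interval -2.28 to -0.87), 2.97-fold lower, with an adjusted p = 0.0991. Fzd8 passed when the dimmest 40% were left out (adjusted p = 0.0336) and with a variance trend (0.0314). Without control B and miR-200 A the difference was -1.48 (adjusted p = 0.170). A second probe set, not above the gauge, gave -1.42 ± 1.28.

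Fzd7 and Fzd1 were both lower in miR-200 cells. Fzd7 read 9.39, 9.04 and 9.02 on miR-200 A, B and C, and 9.78, 10.62 and 9.64 on control A, B and C. Control B was highest, and the nearest values of the groups were 9.39 on miR-200 A and 9.64 on control C. The difference was -0.87 ± 0.30 (adjusted p = 0.294), and -0.68 without control B and miR-200 A (adjusted p = 0.124). Fzd7 lies on chromosome 1 at 59482147 to 59486955.

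Fzd1 read 9.43, 8.79 and 8.95 on miR-200 A, B and C, and 9.90, 9.71 and 9.81 on control A, B and C. The control arrays lay close together, and all 3 miR-200 arrays were below them. The difference was -0.75 ± 0.20, 1.68-fold lower (adjusted p = 0.207), and its dimmer probe set differed by -1.24 ± 0.29, also without overlap. Array weights gave a call (-0.93, adjusted p = 0.0482), and without control B and miR-200 A the difference was -0.99 (adjusted p = 0.102). Fzd1 lies on chromosome 5 at 4753839 to 4758216.

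Fzd5, a receptor important in the gut epithelium, read 10.88, 10.36 and 10.54 on miR-200 A, B and C, and 10.91, 11.14 and 11.06 on control A, B and C. The groups are separated by a gap far smaller than the spread within them. Both of its probe sets gave similar differences, -0.44 ± 0.18 and -0.45 ± 0.17 (adjusted p = 0.357 and 0.340). Fzd2 averaged 8.15 in miR-200 cells and 8.23 in control cells, and its 3 probe sets disagreed. The brightest differed by -0.09 ± 0.15, the next by 0.33 ± 0.12 and the dimmest by -0.47 ± 0.21, the last pair without overlap in opposite directions, so no direction is given for Fzd2. Fzd4 averaged 7.75 in miR-200 cells and 7.69 in control cells, and Fzd10 7.30 and 7.26. Fzd9 was at the floor of 0 on all arrays except control B.

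**Figure D3:**
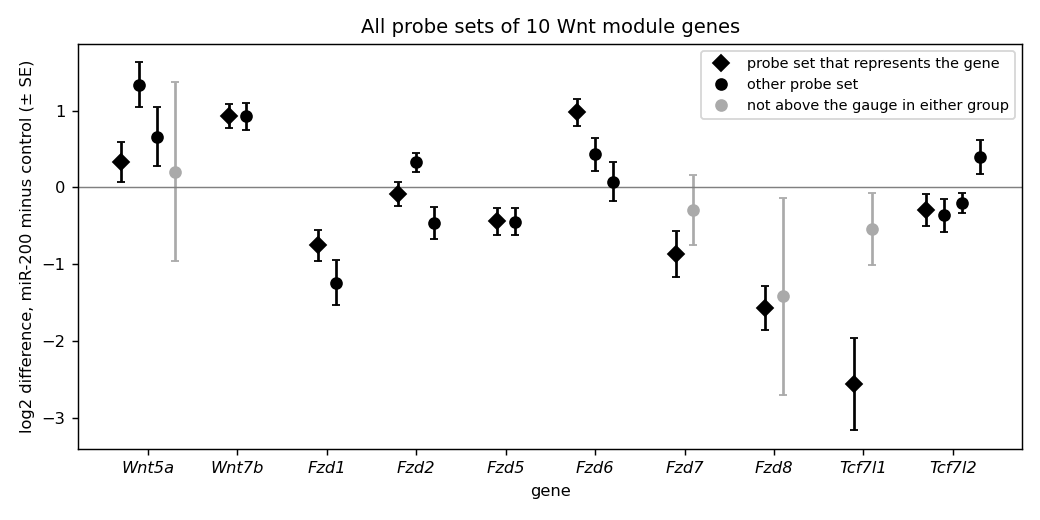
Log2 difference (y axis, ± SE of the limma fit, 3 arrays per group) for every probe set of 10 Wnt module genes, with diamonds for the probe set that represents the gene, circles for the others, and grey where neither group mean is above the gauge. Both probe sets of Wnt7b lie at 0.93 and both of Fzd5 at about the same difference, those of Fzd6 range from 0.07 to 0.98, and those of Fzd2 and Tcf7l2 fall on both sides of 0.

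The co-receptors, which pair with Frizzled at the membrane, had differences near 0. Lrp6 read 9.56, 9.14 and 9.29 on miR-200 A, B and C, and 9.50, 9.34 and 9.11 on control A, B and C, a difference of 0.01 ± 0.18 with a 95% interval of -0.44 to 0.46. Lrp5 read 6.52, 6.60 and 6.73 on miR-200 A, B and C, and 6.85, 6.63 and 6.68 on control A, B and C, a difference of -0.11 ± 0.13 with an interval of -0.44 to 0.23. The groups overlapped for both genes, and the intervals bound the differences these arrays leave possible.

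Among the antagonists, Sfrp2 and Sfrp5 were higher on all 3 miR-200 arrays. These secreted proteins bind Wnt ligands outside the cell. Sfrp2 read 5.85, 5.62 and 5.48 on miR-200 A, B and C, and 2.86, 5.03 and 5.30 on control A, B and C. The control mean, 4.40, is under the gauge. The difference of 1.25 ± 0.67 (adjusted p = 0.473) rests on control A, and without that array it was 0.49. Sfrp5 averaged 6.80 in miR-200 cells and 6.47 in control cells (adjusted p = 0.466), and the nearest values of the groups, 6.5829 and 6.5777, almost touched.

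Sfrp1 averaged 7.39 in miR-200 cells and 7.46 in control cells, and Sfrp4 5.59 and 5.61. Dkk3, a member of the Dickkopf family that differs from the others in its action, averaged 6.60 ± 0.11 in miR-200 cells and 6.24 ± 0.35 in control cells (adjusted p = 0.503), and its other probe set differed by -0.23. Dkk1, Dkk2 and Dkk4, of which Dkk1 is the best known blocker of Lrp5 and Lrp6, had no group mean above the gauge. Dkk1 was lower on all 3 miR-200 arrays at that level, 3.54, 2.31 and 3.98 against 4.28, 4.62 and 4.01 in control A, B and C.

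For the core of the canonical branch the differences were likewise near 0, with overlapping groups. Ctnnb1, which encodes beta-catenin, read 13.40, 13.18 and 13.24 on miR-200 A, B and C, and 13.26, 13.44 and 13.23 on control A, B and C. The difference was -0.04 ± 0.14 (95% interval -0.38 to 0.30, adjusted p = 0.928), and its dimmer probe sets differed by 0.19 and 0.29 with overlap. Axin2, the scaffold gene that is itself a target of beta-catenin, read 6.70, 6.76 and 6.95 on miR-200 A, B and C, and 6.61, 6.86 and 6.99 on control A, B and C. Its difference was -0.02 ± 0.16 (interval -0.41 to 0.37). Axin1 averaged 8.49 ± 0.08 in miR-200 cells and 8.52 ± 0.03 in control cells, and its dimmer probe set differed by 0.23 ± 0.19 with overlap.

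The TCF/LEF factors bind DNA and carry beta-catenin to its target genes. Tcf7l1, known mainly as a repressor, had the largest difference of any member. It read 8.34, 6.71 and 6.43 on miR-200 A, B and C, and 9.39, 10.44 and 9.34 on control A, B and C. The groups did not overlap, and the highest array of each group was the one that stood apart. The difference was -2.57 ± 0.60 (95% interval -4.06 to -1.07), 5.93-fold lower, with an adjusted p = 0.161. With array weights it passed (-2.75, adjusted p = 0.0374). Without control B and miR-200 A the difference was -2.80 (adjusted p = 0.0556). Its other probe set was not above the gauge in either group, and the gene lies on chromosome 6 at 72626371 to 72789045.

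Lef1 read 6.53, 6.33 and 6.48 on miR-200 A, B and C, and 6.50, 6.56 and 6.29 on control A, B and C. Its difference was -0.01 ± 0.14 (95% interval -0.35 to 0.34). The dimmer probe set of Lef1, also above the gauge, differed by 0.44 ± 0.26 with overlap (interval -0.22 to 1.09). Tcf7l2 read 9.84, 10.06 and 10.28 on miR-200 A, B and C, and 10.34, 10.07 and 10.66 on control A, B and C, a difference of -0.30 ± 0.21 (adjusted p = 0.591). Of its 4 probe sets 3 were lower and 1 was higher (0.40 ± 0.22) in miR-200 cells, and the groups overlapped in all but 1.

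Across the members above the gauge, the 2 arrays that stood apart tended to deviate alike. MiR-200 A was above the mean of miR-200 B and C in 23 of 35 members, control B was above the mean of control A and C in 25, and the 2 deviations had the same sign in 25. Over all 14313 genes above the gauge, miR-200 A was above in 51.2%, control B was above in 50.4%, and the signs matched in 69.1%. The deviations of the 2 arrays correlated at 0.677 across 30596 probe sets. Without both arrays 28 of the 35 members kept the sign of their difference and 7 did not, none of them with a call. Without the 2 arrays the difference was 0.10 for Wnt7a, 0.26 for Wnt4 and -0.23 for Wnt11, and for Lrp6, Sfrp4, Axin2 and Lef1 it lay between -0.09 and 0.12. The summed size of the 2 deviations was largest for Tcf7l1, at 1.77 for miR-200 A and 1.08 for control B, followed by Wnt11 (1.36 and 0.52) and Wnt4 (0.43 and 1.27). The part of culture state in these values was not tested.

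**Figure D4:**
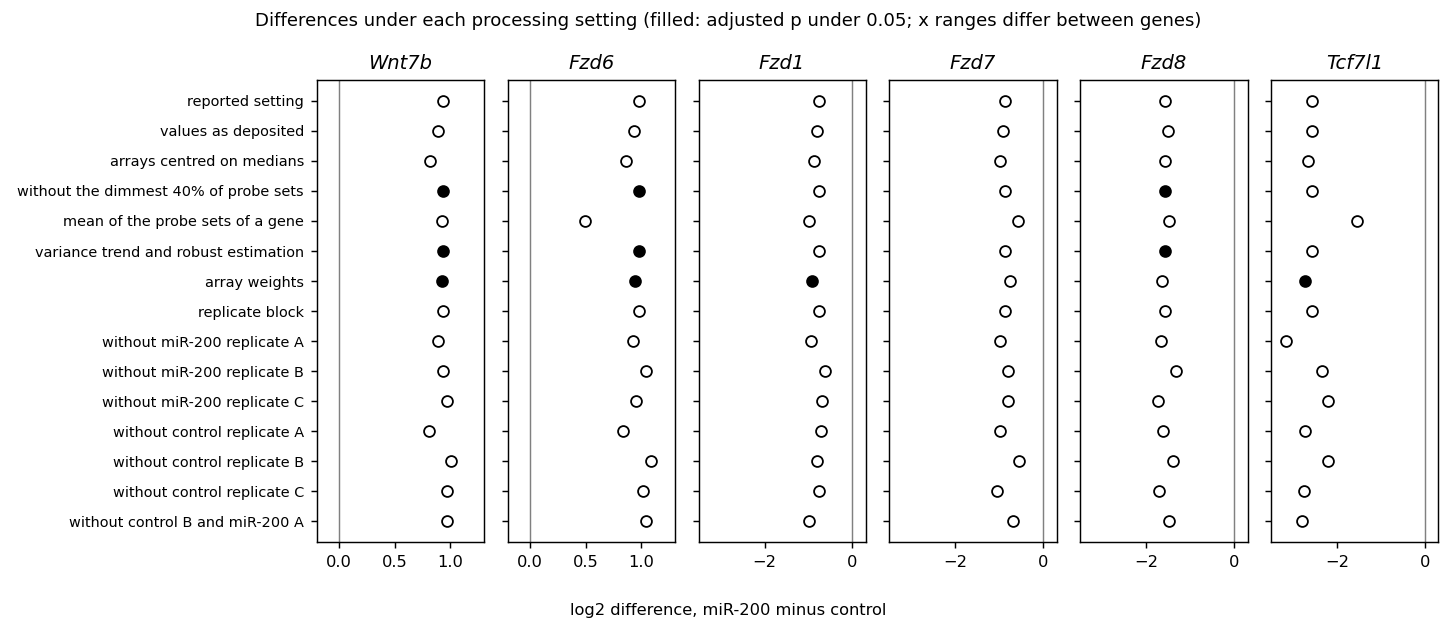
Log2 difference between miR-200 and control cells (x axis, a range per gene) for 6 Wnt module genes under the reported setting and each alternative (rows); filled points have an adjusted p under 0.05. The filled points are those without the dimmest 40% of probe sets, with the variance trend or with array weights, and no point is filled in the reported setting or without any 1 array.

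RefSeq promoter sequences (250 bases before to 50 after the start, GRCm38.p6) matched 30 of the 45 members, with 38 promoters in all. They were searched on both strands for CACCTG, an E-box that Zeb1, a repressor known as a miR-200 target, can bind, and for CTTTGA, the core that TCF/LEF factors bind; these motifs do not overlap. The E-box was in 10 of 38 member promoters (26.3%), against 20.2% of 32851 promoters, and the TCF/LEF core in 5 (13.2%), against 16.0%. Of the members whose groups did not overlap above the gauge, 7 had a promoter here, with the E-box in Fzd5, Sfrp5 and Wnt9b and the TCF/LEF core in Fzd1. The promoters of Fzd1 and Fzd5, receptors that were lower on all 3 miR-200 arrays with both probe sets, are shown with the match in capitals, on the minus strand, 5′ to 3′. In both the match reads as the other strand of the motif (TCAAAG and CAGGTG).
Fzd1 (chr5:4758167-4758466): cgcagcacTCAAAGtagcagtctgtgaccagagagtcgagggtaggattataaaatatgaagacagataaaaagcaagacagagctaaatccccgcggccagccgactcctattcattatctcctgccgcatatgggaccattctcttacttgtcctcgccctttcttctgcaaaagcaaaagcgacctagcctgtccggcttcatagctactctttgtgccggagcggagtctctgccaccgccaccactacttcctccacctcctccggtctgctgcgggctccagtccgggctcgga
Fzd5 (chr1:64737701-64738000): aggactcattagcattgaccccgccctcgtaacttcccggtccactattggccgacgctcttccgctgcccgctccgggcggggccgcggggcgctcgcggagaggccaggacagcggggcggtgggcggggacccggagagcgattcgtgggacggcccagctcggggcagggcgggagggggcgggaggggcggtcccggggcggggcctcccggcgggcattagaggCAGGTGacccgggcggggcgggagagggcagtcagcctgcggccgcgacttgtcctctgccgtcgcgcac
The Fzd1 match starts 242 bases before the start of the gene and that of Fzd5 20 bases before it. A match describes letters in this window and is not a bound site.

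Of the Wnt pathway genes outside the module, 2 of 106 measured fell in miR-200 cells and 0 rose (limma, adjusted p; 0.671% of all genes fell). The 106 come from lists of 111 symbols: 28 secretion, surface and extracellular regulators, 41 intracellular components, 19 known target genes and 24 polarity and other non-canonical components, with 6 symbols in more than 1 list. With p under 0.05 before adjustment 9 were higher and 6 lower (6.35% and 8.47% of all genes), and the groups did not overlap in 13 higher and 9 lower (11.4% and 12.1% of all genes).

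Tspan12, a tetraspanin that helps Fzd4 respond to the ligand Norrin, was the surface regulator that fell. It read 6.68, 6.87 and 7.15 on miR-200 A, B and C, and 9.29, 9.53 and 9.08 on control A, B and C, with no value of one group near the other. It was 5.27-fold lower (-2.40 ± 0.19, limma, adjusted p = 0.0140). Fzd4 itself differed by 0.06 ± 0.24. Ephb3, a receptor tyrosine kinase known as a beta-catenin target in the mouse intestine, was the target gene that fell. It read 5.83, 6.04 and 6.27 on miR-200 A, B and C, and 7.83, 7.66 and 7.64 on control A, B and C, 3.16-fold lower (-1.66 ± 0.16, adjusted p = 0.0245). Each has 1 probe set. Without control B and miR-200 A neither passed (Tspan12 -2.17, adjusted p = 0.0707; Ephb3 -1.58, adjusted p = 0.0834). Leaving out 1 array gave adjusted p of 0.0372 to 0.104 for Tspan12 and 0.0448 to 0.146 for Ephb3, and of these 6 fits the one without miR-200 A was the only one that both passed. With the replicate block they were 0.218 and 0.273. Of all 18193 genes 172 passed as reported, 0 with the block and 58 without control B and miR-200 A. Without 1 array 16 to 185 passed.

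**Figure D5:**
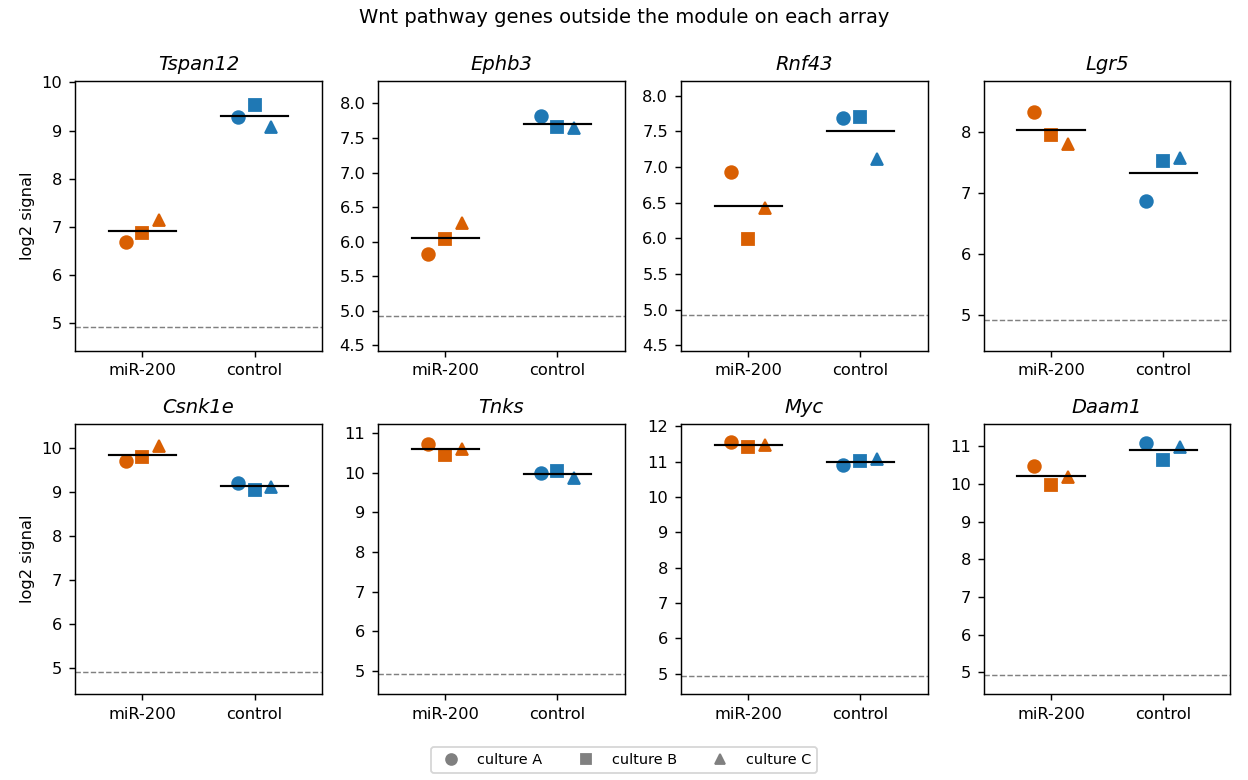
Log2 signal (y axis, a separate range for each gene) of 8 Wnt pathway genes outside the module on each array, miR-200 left and control right, with symbols for cultures A, B and C, a bar for the group mean and a dashed line at the gauge. The groups do not overlap in any of the 8, and Tspan12 and Ephb3 are the ones past the threshold.

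Other surface regulators had separate groups without passing. Rnf43, a ubiquitin ligase that removes Frizzled from the cell surface and is also a known target gene, averaged 6.45 ± 0.47 in miR-200 cells and 7.50 ± 0.34 in control cells (adjusted p = 0.228). Lgr5, an R-spondin receptor and target gene, averaged 8.03 ± 0.28 in miR-200 cells and 7.33 ± 0.39 in control cells (adjusted p = 0.317). Ror1, a receptor kinase of the branch without beta-catenin, averaged 8.02 in miR-200 cells and 7.33 in control cells, though its 2 dimmer probe sets differed by -0.19 and -0.09. Porcn, the acyltransferase that Wnt secretion needs, averaged 8.55 in miR-200 cells and 8.15 in control cells. Of the 19 target genes 0 rose and 1, Ephb3, fell, and the groups overlapped in 14. Separate groups were seen for 2 higher and 3 lower targets, beside array-wide shares of 11.4% and 12.1%. The limma p before adjustment was below 0.05 for 2 targets that rose and 3 that fell, beside 6.35% and 8.47% array-wide. Myc averaged 11.48 ± 0.08 in miR-200 cells and 11.0 ± 0.08 in control cells (0.49 ± 0.12, adjusted p = 0.185). The target Bambi, chosen after its values were seen, had means of 0.08 in miR-200 cells and 2.89 in control cells, both under the gauge.

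Of the 41 intracellular components 0 passed in limma, 6 were higher and 1 lower at an unadjusted p under 0.05 (6.35% and 8.47% of all genes), and 7 were higher and 1 lower without overlap (11.4% and 12.1%). Csnk1e, a casein kinase that acts on Dishevelled, averaged 9.85 ± 0.17 in miR-200 cells and 9.13 ± 0.08 in control cells, a difference of 0.72 ± 0.14 (adjusted p = 0.121). Its other 2 probe sets differed by 0.52 and 0.61, and it passed when the dimmest 40% were left out (adjusted p = 0.0470). The tankyrases, which mark Axin for destruction, were both higher on all 3 miR-200 arrays. Tnks averaged 10.59 in miR-200 cells and 9.97 in control cells (0.62 ± 0.14, adjusted p = 0.147), and of its 2 other probe sets above the gauge 1 differed by 0.01 and 1 by 0.36. Tnks2 averaged 12.14 in miR-200 cells and 11.71 in control cells (0.43 ± 0.12, adjusted p = 0.225), with 0.45 and 0.39 for its other probe sets. Csnk1g2, a casein kinase that acts on Lrp6, averaged 9.61 in miR-200 cells and 9.14 in control cells (adjusted p = 0.265).

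In the polarity and non-canonical list 0 of 24 passed in limma, 0 were higher and 1 lower at an unadjusted p under 0.05 (6.35% and 8.47% of all genes), and 1 was higher and 2 lower without overlap (11.4% and 12.1%). Daam1, a formin that links Dishevelled to the actin skeleton, averaged 10.21 ± 0.25 in miR-200 cells and 10.91 ± 0.23 in control cells, and its 2 brighter probe sets both differed by -0.70 (adjusted p = 0.228 for the brightest). Vangl1, a core polarity membrane protein, averaged 8.28 in miR-200 cells and 7.92 in control cells, and its other probe set differed by -0.33. Nfatc1, a calcium-activated transcription factor, averaged 8.76 in miR-200 cells and 8.88 in control cells. Its next probe set averaged 7.53 in miR-200 cells and 8.12 in control cells (-0.59 ± 0.17, adjusted p = 0.239, no overlap), and the dimmest of those above the gauge differed by 0.21.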

How the data were processed

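RNA of 3 miR-200 and 3 control cultures was labelled with biotin and hybridized to Affymetrix mouse arrays, per the labels' protocols. The authors deposited 1 log2 signal per probe set and array for 45101 probe sets, more than the smaller design the labels name would hold. Every value turned back from base 2 is a number with 2 decimals, which fixes the log base. Between 1578 and 1718 probe sets per array lie at 0, called the floor here, though 34 values over the 6 arrays lie below it. Summarisation and normalization are not given in the sources used here, and the table used has no detection calls.

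Deposited array medians spanned 0.0924 and interquartile ranges 0.174. The arrays were therefore quantile normalized in limma 3.58.1 (R 4.3.3), and 64 control probe sets were left out. Of the rest, 34945 have 1 gene symbol in the platform annotation, 932 several and 9160 none; 34741 were matched by gene number to RefSeq (GRCm38.p6). A two-sided limma fit (lmFit, eBayes) without further terms compared miR-200 with control, with Benjamini-Hochberg adjustment over 45037 probe sets and a threshold of 0.05. The fit was run on simulated arrays with independent normal noise and no arrays that stood apart. The spread of each probe set was capped there at the median, so that run does not show how the fit behaves on these data. Precision is limited by 3 arrays per group.

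Members, lists and alternatives were chosen with earlier results of these data known. Members with separate groups, a difference of at least 1 and a mean above the gauge (Fzd8, Tcf7l1 and Sfrp2), and Ctnnb1, Axin2, Lef1, Tcf7l2, Lrp5 and Lrp6, are given array by array by rule. Other members above the gauge have group means. Wnt7b, Fzd6, Fzd1, Fzd7, Fzd5, Wnt3a and Dkk1 are given by array after their values were seen. From each other list come the genes past the threshold and up to 4 with the largest separate differences. The alternatives were the values as deposited, median centring, the dimmest 40% of probe sets left out, all probe sets of a gene averaged, array weights, a robust fit with a variance trend, a block for the replicate letter, and fits without 1 array or without both control B and miR-200 A.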

Additional observations from a re-analysis of the deposited data

How the results depend on the processing

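The number of module genes past the threshold, 0 as reported, was 3 without the dimmest 40% of probe sets, 3 with the variance trend and 4 when arrays were weighted, and 0 in the other 11 alternatives; fewer tests act in part by construction and the cause was otherwise not tested. Over all genes, those 3 settings called 476 of 12806 (3.72%), 494 of 18193 (2.72%) and 606 of 18193 (3.33%), against 172 (0.945%) as reported. Without the dimmest 40% of probe sets, 30 of the 45 members were tested. Of the pathway genes outside the module, 2 passed as reported, 0 with the replicate block and 0 without control B and miR-200 A. The number was 3 without the dimmest 40% of probe sets. It was 2 with the values as deposited, median centring, probe sets averaged, the variance trend or array weights. Without 1 array 0 to 2 passed, and the single gene without control C was Bambi. Of all 18193 genes, 0 passed with the replicate block, 58 (0.319%) without control B and miR-200 A, and 16 to 185 without 1 array. Correlations between same-letter arrays of their deviations from the group means were -0.524 (A), -0.61 (B) and 0.376 (C), so the letters are not shown to pair the cultures. Over 615 differences of members under alternatives the sign changed in 69, none with a call. For dim members, signal over background limits what can be seen: 10 of 45 were not above the gauge.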
